A study of Bos taurus with 18 samples.

Results

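The genes described here are 4 members of the heat shock response, HSPA1A (ENSBTAG00000025441), HSP90AA1 (ENSBTAG00000006270), HSPB1 (ENSBTAG00000011969) and HSF1 (ENSBTAG00000020751). They were chosen by identifier and not by a rule on their values, though with earlier results of these data known. All 4 of the 4 rows are among the 30162 features of the count table. The symbols come with the rule that chose the genes: the deposited tables do not pair identifiers with symbols, and 0 identifiers matched the RefSeq table for ARS-UCD2.0, so the pairing was not checked here. All 4 passed the filter on low counts, as did 14446 features in all, and each was well above it (351 to 12235 counts per library).

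The libraries were made from blood leukocytes of 18 female cattle in 3 groups of 6 animals: Red Angus (a temperate beef breed of Bos taurus), Droughtmaster (an Australian tropical breed formed from zebu and taurine cattle) and F1 hybrids labelled Red Angus x Droughtmaster. Every animal carried the condition heat stress, which the groups therefore share, and the labels name no age, parentage, date or body temperature. The comparisons are between breeds under that condition, and say nothing of how far any gene moved from an unstressed level. The series is about how expression in these cells is passed on from the parental breeds to their hybrids.

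Heat shock proteins are chaperones that keep other proteins folded when heat or other stress unfolds them. HSF1, heat shock factor 1, is the transcription factor that switches many of their genes on. In unstressed cells it is held inactive by chaperones, and under stress it forms trimers, enters the nucleus and binds heat shock elements in the promoters of its targets. It is controlled largely at the protein level, so its mRNA is not a readout of its activity. HSPA1A encodes the inducible HSP70, the classic heat-induced chaperone of blood cells. HSP90AA1 encodes the stress-inducible cytosolic HSP90, which holds kinases, receptors and HSF1 itself. HSPB1 encodes HSP27, a small heat shock protein that binds unfolding proteins without using ATP and also acts on actin.

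Libraries held 11639027 to 24117615 counts. In Droughtmaster replicate 3, 1 feature took 44.6% of all counts, against at most 0.409% for that feature in the other libraries. TMM scaling factors, which correct library sizes for such differences in composition, ran from 0.734 to 1.46 in the other 17 libraries and were 0.424 in that one. All levels are CPM, counts scaled to a common library total, on the TMM-scaled library sizes. CPM is not corrected for gene length, so levels are compared between animals and not between genes. In a bulk sample, fewer cells of a type and less RNA per cell cannot be told apart, and the planned leukocyte marker lists could not be matched to identifiers, so cell composition was not analysed here.

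HSF1 had the widest gap between breeds of the 4 genes, and it did not pass the test. Its level ran from 52.9 to 187 CPM in Red Angus (median 127), from 66.8 to 191 CPM in the hybrids (median 84.3) and from 47.9 to 121 CPM in Droughtmaster (median 79.3). The ranges of the 3 breeds overlapped: Red Angus replicate 5, at 52.9 CPM, lay among the lowest animals of the whole series, and F1 replicate 2, at 191, was the highest. A Droughtmaster animal exceeded a Red Angus animal in 8 of 36 pairings. Droughtmaster averaged 79.1 ± 28.5 CPM and Red Angus 128 ± 54.1 (SD, n = 6 each), a log2 fold change of -0.69 ± 0.34 (SE), or 0.62-fold with a 95% interval from 0.382 to 1.01 (edgeR quasi-likelihood test, unadjusted p = 0.0529, adjusted p = 0.261). Among all features, 20.3% had a smaller p in this comparison.

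**Figure D1:**
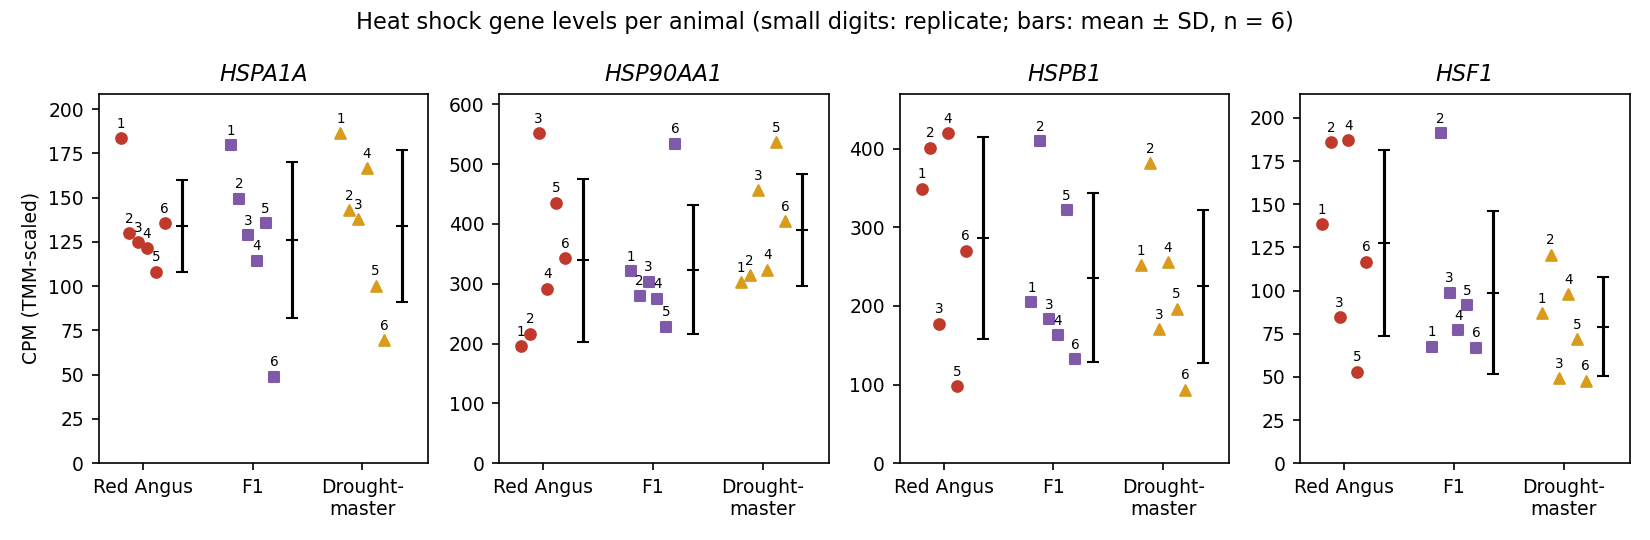
TMM-scaled CPM (vertical axis) of each heat shock gene in every animal, by breed. Small digits are replicate numbers and bars are means ± SD (n = 6). The breeds overlap in every panel. F1 replicate 6 is lowest for HSPA1A, at 48.9 CPM, and F1 replicate 2 is highest for HSF1, at 191 CPM.

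HSPB1, the small chaperone, followed the same order of means with a wider spread. It measured 97.9 to 420 CPM in Red Angus (median 310), 133 to 410 among the hybrids (median 194) and 93.4 to 381 in Droughtmaster (median 224). Within Red Angus the highest animal had 4.29 times the level of the lowest, so a single breed spanned nearly the whole range of the series. Droughtmaster averaged 225 ± 97.2 CPM and Red Angus 286 ± 129 (SD, n = 6 each), a log2 fold change of -0.35 ± 0.37 (SE; 0.786-fold, 95% interval 0.458 to 1.35; edgeR adjusted p = 0.637).

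HSP90AA1 had the smallest SD of log2 CPM of the 4 genes when pooled over breeds (0.454), although within Red Angus HSPA1A varied less (0.258 against 0.577). Its level was 195 to 552 CPM in Red Angus (median 317), 228 to 534 among the hybrids (median 292) and 303 to 537 in Droughtmaster (median 364). The lowest Droughtmaster animal, at 303 CPM, lay above 3 Red Angus and 3 F1 animals and below the other 3 of each. Droughtmaster averaged 390 ± 93.7 CPM and Red Angus 339 ± 136 (SD, n = 6 each), a log2 fold change of 0.20 ± 0.28 (SE; 1.15-fold, 95% interval 0.767 to 1.72; edgeR adjusted p = 0.731).

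HSPA1A, the inducible HSP70, stood at nearly the same level in both parental breeds. It measured 108 to 184 CPM in Red Angus (median 127), 48.9 to 180 among the hybrids (median 132) and 69.4 to 186 in Droughtmaster (median 140). Droughtmaster and Red Angus averaged 134 ± 43.0 and 134 ± 26.05 CPM (SD, n = 6 each), a log2 fold change of 0.00054 ± 0.28 (SE; 95% interval 0.67 to 1.49 in fold; edgeR adjusted p = 1.00). The RefSeq table gives HSPA1B and HSP70-2 as synonyms of HSPA1A. How reads that map to near-identical copies were treated is not given in the sources used here. The HSPA1A count is therefore uncertain where such copies share reads, and the same holds for HSP90AA1 and its pseudogenes.

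No difference between the hybrids and either parental breed passed in any of the 4 genes. Against Red Angus, the log2 fold change of the F1 was -0.37 ± 0.33 for HSF1 and -0.28 ± 0.37 for HSPB1 (SE; edgeR adjusted p = 1.00 for both). It was -0.07 ± 0.28 for HSP90AA1 and -0.09 ± 0.28 for HSPA1A (adjusted p = 1.00 for both). Against Droughtmaster the F1 was at 0.32 ± 0.33 for HSF1 and at 0.07 ± 0.37 for HSPB1 (adjusted p = 0.752 and 0.969). For HSP90AA1 it was at -0.27 ± 0.28 and for HSPA1A at -0.09 ± 0.28 (adjusted p = 0.753 and 0.945). Single animals moved the values of all 4 genes, and none of the changes led to a call. Without F1 replicate 2, HSF1 was at -0.64 against Red Angus (edgeR unadjusted p = 0.0493, adjusted p = 0.731) and at 0.039 against Droughtmaster, and HSPB1 at -0.49 and -0.15. Without Red Angus replicate 4, the F1 was at -0.19 for HSF1 and -0.099 for HSPB1 against Red Angus. Without Droughtmaster replicate 2, it was at 0.48 and 0.28 against Droughtmaster. Without F1 replicate 6, HSP90AA1 was at -0.27 against Red Angus and -0.47 against Droughtmaster, and HSPA1A at 0.082 and 0.084. The comparisons of the F1 with each parental breed share the F1 libraries, so their directions are not independent.

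Relative to the mid-parent value, which is the mean of both parental breeds on the log scale, HSF1 in the F1 lay at -0.02 ± 0.29 and HSPB1 at -0.10 ± 0.32 (log2, SE). HSP90AA1 lay at -0.17 ± 0.24 and HSPA1A at -0.09 ± 0.24, and edgeR's adjusted p was 1.00 for all 4. The 95% interval for HSF1 ran from 0.647-fold to 1.49-fold of the mid-parent value, so moderate departures from midway in either direction lie inside it. The order of mean log2 levels was Red Angus, F1, Droughtmaster for HSF1 and HSPB1, Droughtmaster, Red Angus, F1 for HSP90AA1, and Red Angus, Droughtmaster, F1 for HSPA1A. By median CPM it was Droughtmaster, F1, Red Angus for HSPA1A and Red Angus, Droughtmaster, F1 for HSPB1. Without F1 replicate 6, HSPA1A in the F1 lay at 0.083 against the mid-parent value. No difference between neighbours in the orders of mean log2 levels passed the edgeR test.

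**Figure D2:**
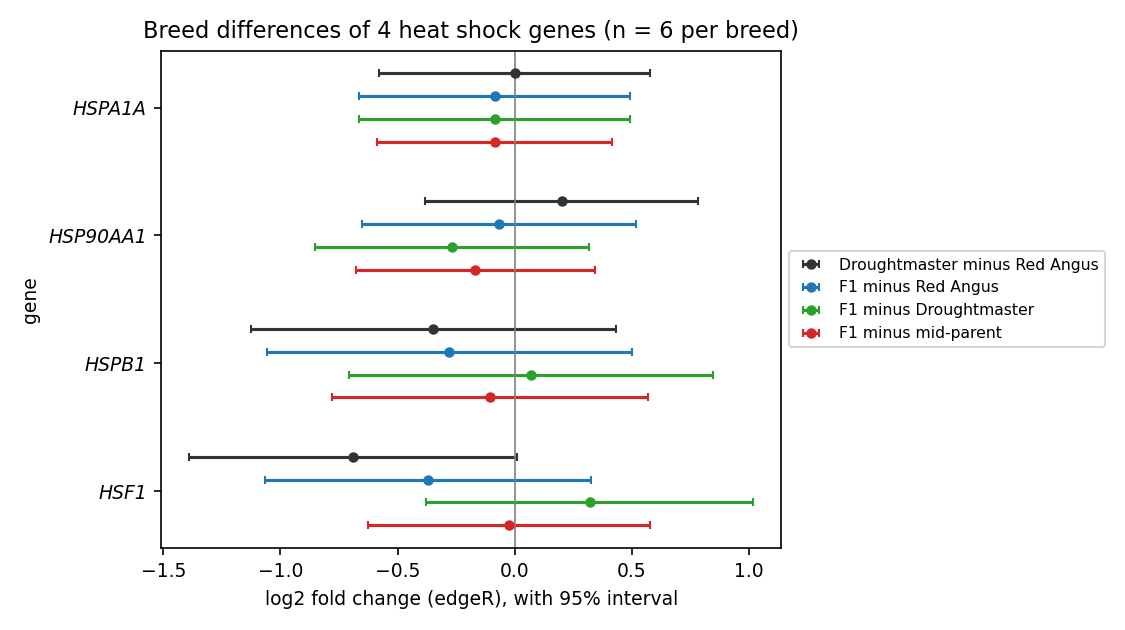
Log2 fold change from edgeR (horizontal axis) of each gene in the 4 comparisons, with 95% intervals (bars) and 6 animals per breed. Each of the 16 intervals includes 0, and the one for HSF1 in Droughtmaster minus Red Angus reaches from -1.39 to 0.01.

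Read against the whole table, 0 of the 4 genes passed in any comparison, by edgeR or by DESeq2's Wald test. The share of all 14446 features that passed by edgeR was 2.6% for Droughtmaster minus Red Angus, 0% for F1 minus Red Angus, 1.18% for F1 minus Droughtmaster and 0% for F1 minus mid-parent. With shares this low, 0 of 4 is near the background. At an unadjusted p under 0.05, edgeR also gave 0 of the 4, against 19.8% of features between the parents, 3.23% for F1 minus Red Angus, 14.1% for F1 minus Droughtmaster and 5.97% for F1 minus mid-parent. No gene had groups of 6 that did not overlap, which held for 1.64%, 0.0969% and 2.08% of features in the 3 pairwise comparisons in the same order.

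Levels varied widely among animals of the same breed. The SD of log2 CPM within breeds was 0.712 for HSPB1, 0.608 for HSF1, 0.507 for HSPA1A and 0.454 for HSP90AA1, and the median over all 14446 features was 0.677. Among the 500 features nearest in mean log2 CPM, 77.4% had a smaller SD than HSPB1, 67.0% a smaller one than HSF1, 48.8% than HSPA1A and 31.0% than HSP90AA1. Counting error was a small part of it, at 5.34% of the value for the lowest HSF1 count and less for the other genes. By breed, HSPA1A had an SD of 0.258 log2 units in Red Angus, 0.525 in Droughtmaster and 0.656 in the hybrids, and the F1 value includes replicate 6, at 48.9 CPM against 114 to 180 in the other 5 hybrids. These spreads were not compared by a test.

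Across the 18 animals the genes did not move as a single block. HSPB1 and HSF1 varied together, and HSP90AA1 ran opposite to both. Pearson's r between HSPB1 and HSF1 log2 CPM was 0.90 and Spearman's rho 0.91 (permutation p = 1e-05 for each, the smallest that 100000 permutations can give; adjusted p = 6e-05 over 6 pairs). After subtracting breed means r was 0.92, and without the 2 animals farthest from the HSPB1 median it was 0.87. The 3 animals highest in HSPB1, Red Angus replicates 4 and 2 and F1 replicate 2, were also the 3 highest in HSF1.

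Within breeds HSPB1 and HSF1 put the 6 Red Angus animals in the same order (r = 0.99, rho = 1.00), and likewise the 6 Droughtmaster animals (r = 0.92, rho = 1.00). The exact permutation p for r was 0.00139 in both breeds, the smallest that 720 pairings gave (adjusted p = 0.0125 over 18 within-breed relations). In the F1 r was 0.81 and rho 0.71 (exact permutation p = 0.0403, adjusted p = 0.242). Whether the relation differs between breeds was not tested. So close a relation was not rare in these libraries: 2.53% of features correlated with HSPB1 at least as closely as HSF1 did, and 4.43% correlated with HSF1 at least as closely as HSPB1 did.

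HSP90AA1 ran opposite to HSPB1 and HSF1, a direction that held under each scaling tried though not always past the test. Its r was -0.67 with HSPB1 (rho -0.63, permutation p = 0.00261, adjusted p = 0.00783) and -0.64 with HSF1 (rho -0.66, permutation p = 0.00429, adjusted p = 0.00858). Such relations were not rare: 14.9% of features were at least as negative with HSPB1 as HSP90AA1 was, and 20.7% with HSF1. In turn, 4.08% of features were at least as negative with HSP90AA1 as HSPB1 was, and 6.31% as HSF1 was. Without the 2 animals farthest from the HSP90AA1 median, Red Angus replicate 3 and Droughtmaster replicate 5, r was -0.72 and -0.69. The sign was negative within each of the 3 breeds for both pairs, from -0.54 to -0.76 with HSPB1 and from -0.42 to -0.74 with HSF1, and none of these passed by itself over 6 animals (exact permutation p from 0.0861 to 0.31). Red Angus replicate 1 shows the contrast: it had the lowest HSP90AA1 of all animals (195 CPM) beside high HSPB1 (349 CPM). Droughtmaster replicate 6 and Red Angus replicate 5 had the lowest HSPB1 (93.4 and 97.9 CPM) beside HSP90AA1 of 404 and 435 CPM.

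**Figure D3:**
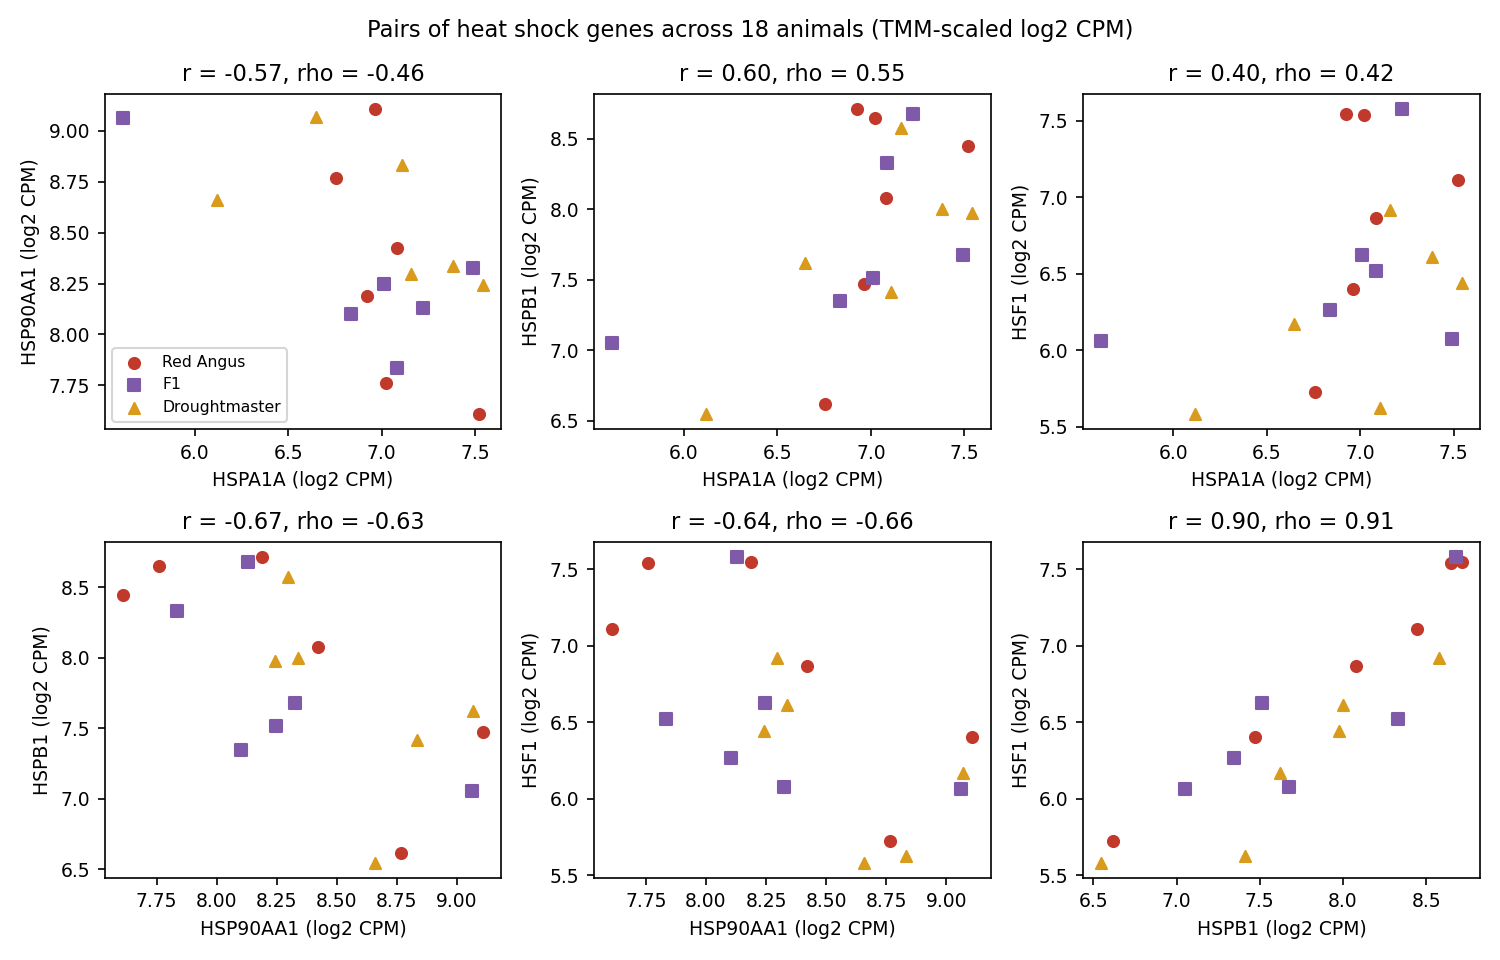
Log2 CPM of each pair of genes over 18 animals, with 1 point per animal and breeds by colour and shape. HSPB1 and HSF1 lie along a rising line (r = 0.90), HSP90AA1 falls as HSPB1 and HSF1 rise (r = -0.67 and -0.64), and in the 3 panels with HSPA1A the F1 animal at the far left is replicate 6.

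HSPA1A was less closely tied to the others. Its r was 0.60 with HSPB1 (rho 0.55, permutation p = 0.00693, adjusted p = 0.0104), -0.57 with HSP90AA1 (rho -0.46, permutation p = 0.0115, adjusted p = 0.0138) and 0.40 with HSF1 (rho 0.42, permutation p = 0.0954, adjusted p = 0.0954). By rank, the adjusted permutation p was 0.0308 with HSPB1 and 0.0655 with HSP90AA1. After subtracting breed means, HSPA1A and HSP90AA1 were at r = -0.62 and rho = -0.63 (permutation test, adjusted p = 0.00912 and 0.00894), and HSPA1A and HSPB1 at r = 0.60 and rho = 0.53 (adjusted p = 0.00912 and 0.0335). The 2 animals with the lowest HSPA1A were F1 replicate 6 and Droughtmaster replicate 6, and no pooled relation of HSPA1A passed without them. Over the other 16 animals r was 0.38 with HSPB1 (permutation p = 0.144), -0.47 with HSP90AA1 (permutation p = 0.0691) and 0.18 with HSF1 (permutation p = 0.507). Without F1 replicate 6 alone, the relation of HSPA1A with HSP90AA1 was at -0.46 (permutation test, adjusted p = 0.0702).

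Several of these relations changed with the scaling of the libraries. The relation of HSPB1 with HSF1 was at 0.83 or more under each scaling tried, total counts included. With CPM on plain total counts, which Droughtmaster replicate 3 enters with 44.6% of its counts on 1 feature, r of HSP90AA1 was -0.30 with HSPB1, -0.07 with HSF1 and 0.03 with HSPA1A, and none passed. With that feature left out of the totals, HSP90AA1 and HSPB1 were at -0.64 (permutation test, adjusted p = 0.014), HSP90AA1 and HSF1 at -0.41 (adjusted p = 0.173), and HSPA1A and HSPB1 at 0.32 (adjusted p = 0.285). DESeq2's size factors gave each pair the same call as TMM.

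**Figure D4:**
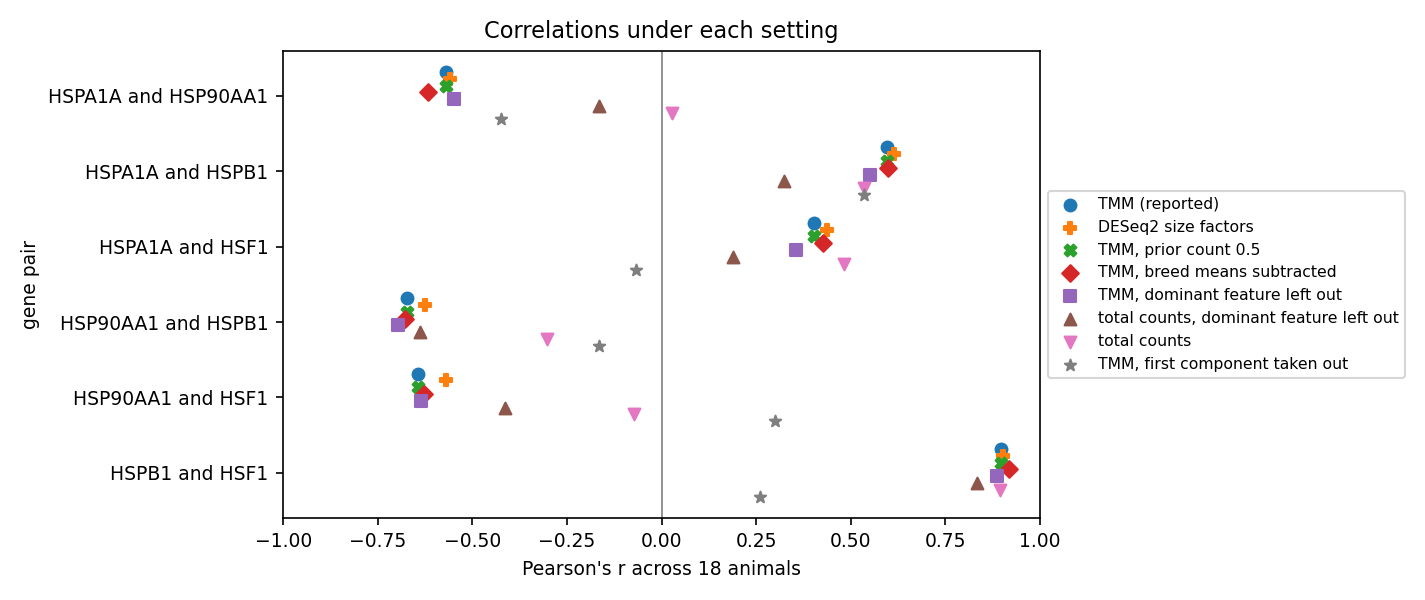
Pearson's r of each pair over 18 animals (horizontal axis) under TMM scaling and the other settings (symbols). HSPB1 and HSF1 stay between 0.83 and 0.92 except when the first principal component is taken out (0.26). The pairs with HSP90AA1 move toward 0 or past it with total counts.

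With TMM scaling, HSF1 tracked the main axis of variation of the leukocyte libraries closely. The first principal component of the other 14442 features held 32.6% of their variance, with its sign set so that higher scores go with more features detected. HSF1 correlated with it at r = -0.98 and rho = -0.99, and only 2 of those 14442 features had an r as far from 0. For HSPB1 r was -0.89, for HSP90AA1 0.69 and for HSPA1A -0.42 (permutation p = 1e-05, 1e-05, 0.00164 and 0.0798 for HSF1, HSPB1, HSP90AA1 and HSPA1A), and 7.39%, 34.9% and 64.3% of the other features were as far from 0. The median feature had an absolute r of 0.562. Without Red Angus replicate 4 and F1 replicate 2, the animals farthest from the median score, r of HSF1 was -0.98. With CPM on plain total counts, and the component made from those values, it was -0.32, and -0.70 with the dominant feature left out of the totals. Under the same 2 settings HSPB1 was at -0.48 and -0.80, HSP90AA1 at 0.85 and 0.83, and HSPA1A at 0.11 and -0.023. This relation was chosen after its values were seen, and the component is made from the same libraries.

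**Figure D5:**
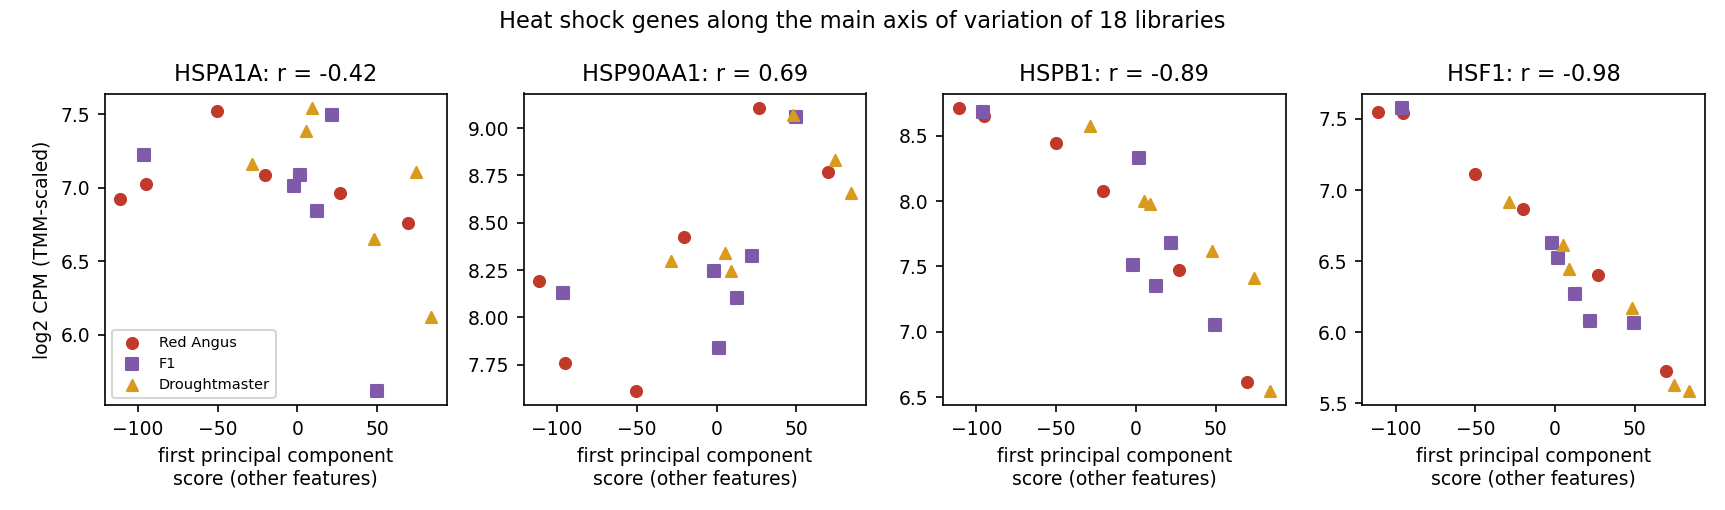
Log2 CPM of each gene (vertical axis) against the score on the first principal component of the other features (horizontal axis) in 18 animals. HSF1 falls along a nearly straight line (r = -0.98), HSPB1 falls (r = -0.89), HSP90AA1 rises (r = 0.69) and HSPA1A is scattered (r = -0.42).

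The same axis separated animals within each breed. Scores ran from -111 to 69.6 in Red Angus, from -96.1 to 49.8 in the hybrids and from -28.6 to 84.1 in Droughtmaster. Libraries also differed in the number of features with a count, 15507 to 19605, and its relation with the axis was not tested. The r of that number was -0.86 with HSPB1 and -0.85 with HSF1 (permutation p = 2e-05 each, adjusted p = 0.00012 over 12 relations), and -0.86 and -0.85 after subtracting breed means. For HSP90AA1 it was 0.47 and for HSPA1A -0.47 (permutation test, adjusted p = 0.14 each). No relation with total counts or with the share of the most abundant feature passed (permutation test, adjusted p of 0.409 or more for Pearson's r and of 0.146 or more by rank). The TMM factors were not tested against these genes. They were high in the libraries with the most features, Droughtmaster replicate 6 (1.46) and Red Angus replicate 5 (1.43), which were low in HSF1 (47.9 and 52.9 CPM). Those with the fewest, F1 replicate 2 and Red Angus replicates 2 and 4, had 0.936, 0.950 and 0.770 beside HSF1 of 191, 186 and 187 CPM. Droughtmaster replicate 3 went the other way, at 0.424 with HSF1 of 49.3 CPM. F1 replicate 3, at 1.26, had HSF1 of 98.6 CPM, above the median of 89.2 over all animals. CPM is divided by the TMM-scaled library size, so a higher factor by itself lowers CPM. RNA quality, cell counts and handling times are not given in the sources used here, and their part in the axis was not tested.

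With the component as a covariate in the edgeR fit, an alternative chosen after seeing the data, the gap in HSF1 between Droughtmaster and Red Angus was 0.02 ± 0.12 (log2, SE) in place of -0.69 ± 0.34. That outcome was largely set beforehand, because HSF1 correlated with the component at r = -0.98 and HSPB1 at -0.89. Taking it out removes most of their variation, in this fit and in the correlations below. Its scores also differed in range between breeds, so these values cannot tell a breed difference from the axis. HSPB1 turned from -0.35 ± 0.37 to 0.42 ± 0.19 (edgeR unadjusted p = 0.0411, adjusted p = 0.198), and HSP90AA1 from 0.20 ± 0.28 to -0.11 ± 0.22. HSPA1A was at 0.20 ± 0.26. With the component taken out of each gene, r between HSPB1 and HSF1 was 0.26, between HSP90AA1 and HSPB1 -0.17 and between HSP90AA1 and HSF1 0.30, and none of the 6 pairs passed. HSPA1A and HSPB1 stood at 0.53 (permutation p = 0.0205, adjusted p = 0.123) and HSPA1A and HSP90AA1 at -0.42 (permutation p = 0.0798).

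The features most like each gene were sought among the 9673 Ensembl identifiers that averaged 5 CPM or more, by Pearson's r of log2 CPM over the 18 libraries after subtracting breed means. For HSF1 the closest was ENSBTAG00000006422 (r = 0.99) and 1663 identifiers reached an r of 0.8. For HSPB1 it was ENSBTAG00000019515 (r = 0.98), with 1519 at that level. HSP90AA1 was closest to ENSBTAG00000016869 (r = 0.94), and 151 identifiers reached 0.8. HSPA1A had few close companions: ENSBTAG00000000459 was closest (r = 0.84), and 5 identifiers reached 0.8. That companion averaged 6.82 CPM, near the limit of 5. Without subtracting breed means, the HSPA1A pair was at r = 0.78 and rho = 0.65. In the same way, rho was 0.99 for the HSF1 pair, 0.94 for the HSPB1 pair and 0.91 for the HSP90AA1 pair. These values describe likeness across animals, and the files give these identifiers no names.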

How the data were processed

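The submitters' processing notes name the build ARS-UCD1.2 and, as tools, DESeq2 1.16.1, featureCounts 1.5.0-p3 and HISAT2 2.0.5. They do not give strandedness, so antisense reads cannot be told apart. The authors deposited raw counts per gene, and all 18 columns matched a sample by title. Every pair of libraries of a breed differed beyond sampling noise (chi-square of 64.8 or more per degree of freedom). Counts were tested with edgeR 4.0.16 (filterByExpr, TMM, robust quasi-likelihood F test, 1 fit of 18 libraries, two-sided, Benjamini-Hochberg over 14446 features, threshold 0.05). Standard errors and 95% intervals were derived from the F statistic. Log2 CPM used a prior count of 2. Correlations were tested by 100000 permutations, or exactly for 6 animals, and are two-sided. The procedures were tested on simulated data. The members and lists were chosen with earlier results of these data known. Named genes are the 4 members and the identifier most like each. The planned list of other heat shock genes and the leukocyte marker lists had 0 matched members and were not used. Alternatives were DESeq2 1.42.0 and its size factors, other scalings, no filter, fewer groups, no dominant feature, and each animal left out.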

Additional observations from a re-analysis of the deposited data

Results flagged for a closer look

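Of the 12 combinations of gene and breed, 2 held an animal far from the other 5. HSPA1A in F1 replicate 6 was lowest at 48.9 CPM, and its gap to the next animal took 0.652 of the log2 range of the group. HSF1 in F1 replicate 2 was highest at 191 CPM, with a gap of 0.63 of the range. Both gaps pass the 95% critical value of Dixon's test for 6 animals, which chance alone passes in about 5% of groups. F1 replicate 6 also had the highest HSP90AA1 of the F1, at 534 CPM. F1 replicate 2 also had the fewest features with a count, 15507, and the highest HSPB1 of the F1, at 410 CPM.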

How the results depend on the processing

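No call of a breed difference changed for the 4 genes: none passed under the other scalings, without the filter, by DESeq2, with only the groups compared, or without any animal (smallest adjusted p without an animal 0.0835, for HSF1 in Droughtmaster minus Red Angus). Signs of differences near 0 did change. With upper-quartile scaling HSPA1A and HSP90AA1 in F1 minus Red Angus were at 0.011 and 0.033, and HSF1 in F1 minus mid-parent at 0.021 (0.0049 without the filter). With the first principal component as a covariate, Droughtmaster minus Red Angus was -0.11 for HSP90AA1, 0.42 for HSPB1 and 0.023 for HSF1, HSPB1 was at 0.12 in F1 minus Red Angus, and F1 minus Droughtmaster was -0.30 for HSPB1 and -0.067 for HSF1. Leaving out each animal gave these ranges: for HSPA1A, -0.12 to 0.13 in Droughtmaster minus Red Angus, -0.21 to 0.082 in F1 minus Red Angus, -0.22 to 0.084 in F1 minus Droughtmaster and -0.21 to 0.083 against the mid-parent. The range was -0.27 to 0.13 for HSP90AA1 in F1 minus Red Angus, -0.15 to 0.28 for HSPB1 in F1 minus Droughtmaster and -0.32 to 0.018 against the mid-parent, and -0.30 to 0.076 for HSF1 against the mid-parent. With signs kept, Droughtmaster minus Red Angus ranged from -0.85 to -0.52 for HSF1, -0.53 to -0.18 for HSPB1 and 0.075 to 0.39 for HSP90AA1.

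For the pairs, total counts gave 0.028 (HSPA1A, HSP90AA1), 0.54 (HSPA1A, HSPB1), -0.30 (HSP90AA1, HSPB1) and -0.072 (HSP90AA1, HSF1). Without the dominant feature in the totals the values were -0.17, 0.32, -0.64 and -0.41 in that order, and of these only HSP90AA1 with HSPB1 passed. With the first component taken out they were -0.42, 0.53, -0.17 and 0.30, with -0.069 for HSPA1A and HSF1 and 0.26 for HSPB1 and HSF1. The settings with the first component and with totals without the dominant feature were chosen after seeing the data, and the cause of these shifts was not tested. Without each animal, HSPA1A and HSP90AA1 ranged from -0.62 to -0.46. HSF1 ranged from -0.99 to -0.98 with the first component, and was at -0.32 with total counts and -0.70 with those totals without the dominant feature. Relations near 0 with total counts ranged from -0.062 to 0.29 for HSF1, -0.097 to 0.26 for HSPB1 and -0.013 to 0.19 for HSPA1A, and HSPA1A against the share of the most abundant feature from -0.52 (without Droughtmaster replicate 3) to 0.057.

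The counts of all features that passed moved more: 376 between the parents became 56 with only 12 libraries, 143 to 1407 without an animal and 1037 by DESeq2. The 171 for F1 minus Droughtmaster became 65 to 335 and 622, the 0 against the mid-parent 57 by DESeq2, and the 0 for F1 minus Red Angus 1. No paired analysis was possible because the labels give no numbers shared between breeds. The number of animals limits the precision: with 6 a breed, the interval for HSPA1A between the parents spanned 0.67-fold to 1.49-fold.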
